A study of Mus musculus with 10 samples.

Results

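Cells sorted by a Hopx reporter, used to mark reserve stem cells, were compared with cells sorted by an Lgr5 reporter. The Lgr5 reporter is used to mark active stem cells. Both kinds of cell came from the intestine of C57Bl/6 mice fed ad libitum (AL). The comparison holds 5 of the 10 libraries of the series, 2 of Hopx AL and 3 of Lgr5 AL, and all 30295 gene rows of the deposited tables. Libraries were chosen by their labels alone, with no measured value. Hopx AL cells were sorted from mice carrying Hopx-CreER::LSL-tdTomato, in which a Cre expressed from Hopx has to be activated to switch on a red protein that then stays on in the cell and its descendants. Lgr5 AL cells were sorted from mice carrying Lgr5-EGFP-IRES-CreER, in which a green protein reports current activity of Lgr5. The other 5 libraries came from mice of the same lines under calorie restriction (CR), 2 of Hopx CR and 3 of Lgr5 CR. The 10 libraries came from 10 animals in 5 isolations, and each isolation holds an AL and a CR animal of a single line. Isolations 1 to 3 were Lgr5 and isolations 4 and 5 were Hopx, so population, reporter allele and isolation cannot be told apart in any difference given here.

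Crypts of the small intestine hold dividing Lgr5-positive cells at their base, which feed all epithelial lineages and depend on Wnt and Notch signals. A slower dividing reserve population, marked by reporters such as Hopx-CreER, can replace them after injury. Secretory lineages arise from the same crypts: Paneth cells, which secrete antimicrobial defensins and lysozyme, goblet cells, which secrete mucus, and enteroendocrine cells, which release hormones such as GIP, neurotensin and secretin. In sorted bulk samples, a larger number of cells of a type and more of its RNA per cell cannot be told apart.

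Hormone genes were among those with wide differences, and the promoters of 3 of them are shown with that of Sp5, a Wnt target that was lower in Hopx AL. Each run is the 250 bases upstream of the RefSeq start (GRCm38.p6), read 5′ to 3′ on the strand of the gene. Capitals mark the E-box CAGCTG, a form of the element that basic helix-loop-helix factors such as Neurod1 bind, in the hormone genes, and the TCF/LEF element CTTTGAT, bound by the factors that carry the Wnt signal, in Sp5.
Gip, chr11:96024295-96024544, plus strand: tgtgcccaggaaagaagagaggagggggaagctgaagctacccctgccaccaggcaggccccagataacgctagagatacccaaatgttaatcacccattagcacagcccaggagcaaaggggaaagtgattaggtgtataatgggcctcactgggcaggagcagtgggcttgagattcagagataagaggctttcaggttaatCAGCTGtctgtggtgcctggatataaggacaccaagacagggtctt
Nts, chr10:102490419-102490668, minus strand: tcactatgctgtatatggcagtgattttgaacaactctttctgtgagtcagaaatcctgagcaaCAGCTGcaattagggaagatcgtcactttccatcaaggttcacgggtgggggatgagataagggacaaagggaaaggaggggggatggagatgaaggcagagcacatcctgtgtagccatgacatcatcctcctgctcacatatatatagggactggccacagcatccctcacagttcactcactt
Sct, chr7:141279134-141279383, minus strand: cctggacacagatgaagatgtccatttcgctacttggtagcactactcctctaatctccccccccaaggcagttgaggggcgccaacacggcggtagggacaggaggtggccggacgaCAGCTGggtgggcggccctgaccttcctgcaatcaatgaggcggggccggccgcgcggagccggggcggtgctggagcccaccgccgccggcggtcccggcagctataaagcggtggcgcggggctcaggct
Sp5, chr2:70474673-70474922, plus strand: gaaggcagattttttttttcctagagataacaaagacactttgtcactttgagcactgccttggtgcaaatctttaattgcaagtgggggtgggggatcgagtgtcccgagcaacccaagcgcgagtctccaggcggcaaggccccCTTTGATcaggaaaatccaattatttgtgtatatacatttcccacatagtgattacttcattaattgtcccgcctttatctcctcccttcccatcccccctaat
The capitals begin 46 bases before the start in Gip, 186 in Nts, 132 in Sct and 104 in Sp5. Searched on both strands, CAGCTG was in 13% of all 32851 promoter windows of this length and CTTTGAT in 3.21%. Counted per gene, 4 of 15 hormone genes with a window and 4 of 16 enteroendocrine transcription factor genes held CAGCTG, against 14.7% of all genes with a window. So did 5 of 16 Wnt pathway and target genes and 2 of 18 active stem cell genes. CTTTGAT was in 2 of 18 active stem cell genes, Sp5 and Tnfrsf19, and in 2 of 15 hormone genes, against 3.72% of all genes. The motifs and the 4 genes were chosen after the expression values were known, and a match describes letters, not binding.

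The shallowest of the 5 was Lgr5 AL replicate 3, with 20.3 M estimated counts, and the deepest was Hopx AL replicate 1, with 72.1 M. Correlations of log2 CPM were 0.958 between the Hopx AL libraries, 0.937 to 0.954 among the Lgr5 AL libraries and 0.932 to 0.941 between populations, so the populations were only slightly farther apart than libraries of the same kind. Hopx AL replicate 1 stood apart by a 9.39% share of counts in Lyz1, the Paneth cell lysozyme, against 0.677% in Lgr5 AL replicate 3 and 2.56% to 3.44% in the other 3 libraries. Levels below are CPM, counts per 1e6 counts of a library after TMM scaling. Labels name separate animals, so the spread between libraries of a group includes that between animals.

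Of 15839 genes tested with edgeR's quasi-likelihood test and Benjamini-Hochberg adjustment, 3 passed the 0.05 threshold in Hopx AL against Lgr5 AL (0.0189%). Gm9765 was higher in Hopx AL (log2 fold change 7.43, edgeR adjusted p = 0.0123), as was Rps13-ps1 (5.46, adjusted p = 0.0174), and Gm5499 was lower (-7.15, adjusted p = 0.0123). These 3, named after their values were seen, are predicted genes or pseudogenes, whose reads can be shared with near-identical copies, and are uncertain as single genes. In the CR libraries Gm5499 and Rps13-ps1 passed in the same directions, together with Gm10698. No gene with an established function passed in AL. An unadjusted p under 0.05 was reached by 2801 genes (17.7%, where 5% would be reached with no difference), 1468 higher (9.27%) and 1333 lower (8.42%), and the values below are read against these shares. DESeq2, run as an alternative on the same libraries, called 1104 of 15225 genes at its adjusted p of 0.05 (7.25%), 455 higher (2.99%) and 649 lower (4.26%).

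The sort markers were measured first. Lgr5, the receptor that marks active stem cells, was at 70.0 and 87.2 CPM in Hopx AL and at 75.0, 136.5 and 254.6 CPM in Lgr5 AL. The groups overlapped, because Lgr5 AL replicate 1 lay between the Hopx AL libraries, and the log2 fold change was -0.98 ± 0.50 (SE, edgeR adjusted p = 0.34). Without Lgr5 AL replicate 3, that log2 fold change was -0.44. Hopx, a homeodomain protein that does not bind DNA itself, was at 111.0 and 105.3 CPM in Hopx AL and at 116.1, 130.8 and 133.0 CPM in Lgr5 AL. Both Hopx AL libraries were therefore below every Lgr5 AL library for the mRNA of the gene that drives their Cre, by a log2 fold change of -0.23 ± 0.18 (edgeR adjusted p = 0.54). Per transcript length, mean TPM was 86.3 for Hopx and 13.2 for Lgr5 in Hopx AL, and 178.5 and 48.9 in Lgr5 AL. Hopx mRNA was the more abundant of the pair in both populations.

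Hormone genes differed by wide margins. Gip, the incretin of K cells, was at 3549 and 2045 CPM in Hopx AL against 172.8, 111.5 and 67.8 CPM in Lgr5 AL. Nts, which encodes neurotensin, was at 215.9 and 92.1 CPM against 0.07, 0.21 and 0 CPM, which in Lgr5 AL are 2, 9 and 0 estimated counts. The lower Hopx AL library was far above the highest Lgr5 AL library for both genes. The log2 fold change of Gip was 4.57 ± 0.71, a 23.8-fold difference (edgeR adjusted p = 0.0581). The fitted log2 fold change of Nts was 10.40 ± 1.64 with the same edgeR adjusted p of 0.0581 and rests on these few counts. Neither passed the threshold in the edgeR fit, while the DESeq2 adjusted p was 9.6e-10 for Gip and 1.1e-07 for Nts.

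Sct, the secretin gene whose promoter is shown above, was at 132.1 and 155.2 CPM against 16.6, 24.8 and 10.8 CPM (log2 fold change 3.04 ± 0.56, edgeR adjusted p = 0.0641). Sst, the somatostatin of D cells, was at 460.5 and 191.4 CPM against 2.43, 7.01 and 43.0 CPM. Cck, the cholecystokinin of I cells, was at 338.2 and 301.9 CPM against 12.0, 43.3 and 19.1 CPM. Hormones of several enteroendocrine cell kinds were thus higher in both Hopx AL libraries, with no overlap in these 3 genes. Of 16 tested hormone or amine genes, 9 reached an unadjusted p under 0.05, all higher, and the median log2 fold change was 1.87 against 0.04 over all genes. Tph1, the serotonin-making enzyme of enterochromaffin cells, was at 352.7 and 477.5 CPM against 102.7, 156.1 and 94.3 CPM. Gcg, Pyy, Hdc and Ghrl did not reach an unadjusted p of 0.05. Ghrl, which encodes ghrelin, was at 30.2 and 27.7 CPM against 77.7, 6.67 and 4.67 CPM, so Lgr5 AL replicate 1 lay above both Hopx AL libraries.

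The secretory machinery of endocrine cells followed the same direction. Of 22 tested granin, prohormone-processing and vesicle genes, all 22 had a log2 fold change above 0 (52.4% of all genes), 16 reached an unadjusted p under 0.05 and 21 did not overlap between groups (18.8% of all genes were higher without overlap). Their median log2 fold change was 1.89. Scg2, the granin secretogranin II, was at 112.5 and 96.4 CPM against 9.03, 14.02 and 8.25 CPM (log2 fold change 3.32 ± 0.59, edgeR adjusted p = 0.0604). Scgn, the calcium sensor secretagogin, was at 78.4 and 29.4 CPM against 10.1, 9.30 and 3.86 CPM. Cpe, the carboxypeptidase that trims prohormones, was at 409.9 and 296.7 CPM against 53.6, 94.0 and 53.1 CPM. The general marker Chga differed less: chromogranin A was at 1360 and 2013 CPM against 568.4, 1148 and 544.2 CPM (log2 fold change 1.16 ± 0.68, edgeR adjusted p = 0.41). Its 2 Hopx AL values were still above all 3 Lgr5 AL values.

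**Figure D1:**
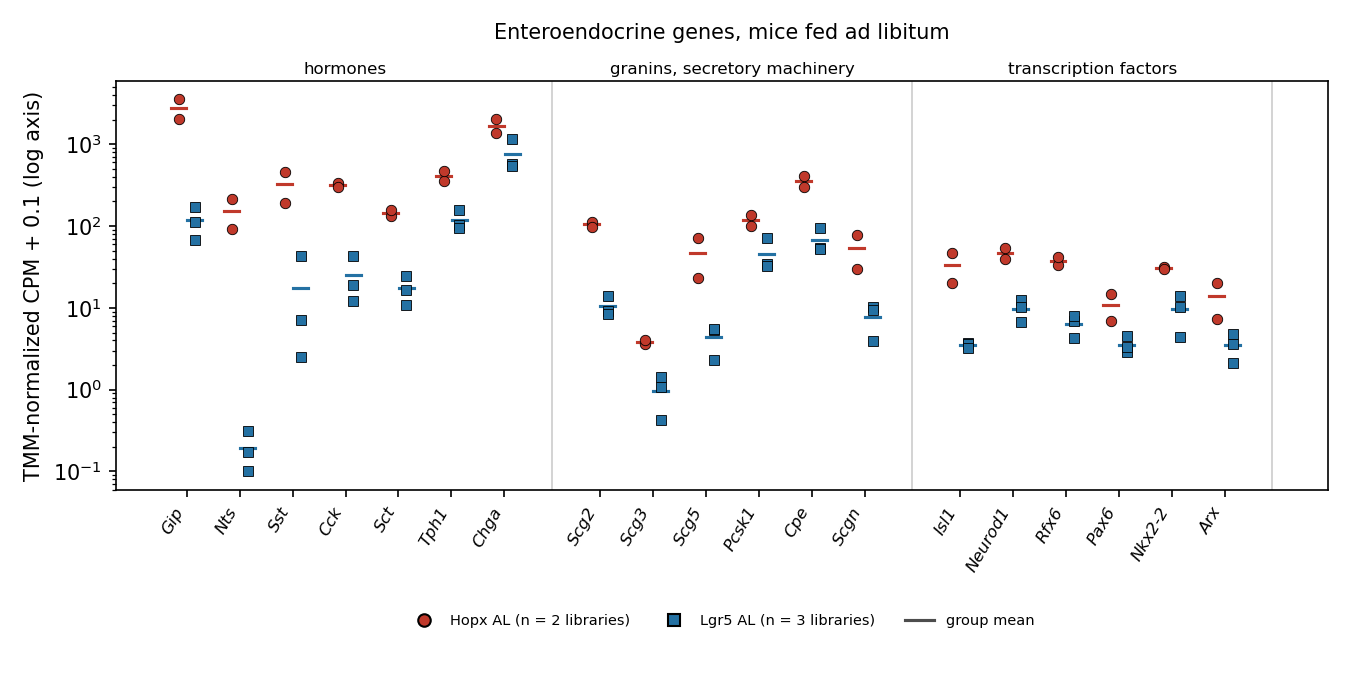
Levels (TMM-normalized CPM plus 0.1, log axis) of hormone, secretory machinery and transcription factor genes in each Hopx AL (circles) and Lgr5 AL (squares) library, with the group mean as a bar. All 19 genes have both Hopx AL libraries above the 3 Lgr5 AL libraries, with the widest gap in Nts and a narrow one in Chga. The 19 are a selection that leaves out members with overlap, such as Ghrl and Sox4. Over the full lists, 11 of 16 hormone, 21 of 22 granin list and 14 of 20 transcription factor genes were higher without overlap.

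Transcription factors of the enteroendocrine lineage were also higher in Hopx AL, with exceptions. Isl1, a LIM homeodomain factor, was at 47.0 and 20.1 CPM in Hopx AL against 3.60, 3.50 and 3.17 CPM in Lgr5 AL (log2 fold change 3.29 ± 0.45, edgeR adjusted p = 0.0581). Rfx6 was at 33.5 and 42.0 CPM against 6.75, 7.85 and 4.15 CPM, and Neurod1 at 39.8 and 53.8 CPM against 6.71, 12.3 and 10.0 CPM. Neurog3, which starts the lineage, was at 18.4 and 20.5 CPM against 16.1, 9.60 and 5.53 CPM (log2 fold change 0.90 ± 0.42, edgeR adjusted p = 0.30), so its groups were close although they did not overlap. Of 20 tested factors, 10 reached an unadjusted p under 0.05, all higher, with a median log2 fold change of 1.27. Sox4, an early progenitor factor on the same list, lay the other way at 76.5 and 128.3 CPM against 112.8, 136.6 and 275.9 CPM, with overlap.

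Paneth cell genes were also higher, and this moved with 1 library on each side. Of 25 tested Paneth genes, 16 reached an unadjusted p under 0.05, all higher, with a median log2 fold change of 1.59. Lyz1 was at 109200 and 33730 CPM in Hopx AL against 25340, 26370 and 5569 CPM in Lgr5 AL (log2 fold change 1.90 ± 0.64, edgeR adjusted p = 0.17). Hopx AL replicate 1 was high and Lgr5 AL replicate 3 low, and with both left out the log2 fold change of Lyz1 was 0.38. Many of these genes are alpha-defensins (Defa), a family of near-identical copies, and are uncertain one by one. Clps, the colipase gene, is outside that family and was at 873.8 and 558.3 CPM against 199.1, 373.0 and 101.2 CPM. Goblet cell genes had a median log2 fold change of 0.91, with 10 of 20 at an unadjusted p under 0.05 and higher, but the median was 0.21 without Hopx AL replicate 1. Spink4, a goblet cell peptide, was at 1506 and 866.2 CPM against 453.0, 472.8 and 171.3 CPM, whereas Muc2, the main mucin, was at 183.4 and 71.9 CPM against 125.9, 195.1 and 103.6 CPM and overlapped.

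The endocrine genes were set beside the same libraries. The summed level of the hormone list was 5880 and 3970 CPM in Hopx AL against 782, 764 and 454 CPM in Lgr5 AL, while that of the Paneth list was 251000 and 107000 CPM against 63700, 80600 and 20700 CPM. Leaving out any 1 AL library gave median log2 fold changes of 1.61 to 2.35 for the hormones and 1.62 to 2.12 for the granin list. With Hopx AL replicate 1 and Lgr5 AL replicate 3 both left out, the medians were 1.81 for hormones, 1.78 for the granin list and 1.19 for the transcription factors, but 0.69 for Paneth and 0.0013 for goblet genes. DESeq2 called 6 of 16 hormone genes, 11 of 22 granin list genes, 7 of 20 transcription factors, 10 of 25 Paneth genes and 3 of 20 goblet genes, all higher in Hopx AL. The part of mature secretory cells within the sorts in these differences was not tested.

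Active stem cell genes were lower in Hopx AL. Of 30 tested genes, 15 reached an unadjusted p under 0.05, all lower, 16 were lower without overlap (15.8% of all genes), 28 had a log2 fold change below 0 (47.5% of all genes), and the median was -0.93. DESeq2 called 8 of the 30, all lower. Sp5, the Wnt-induced repressor whose promoter is shown above, was at 12.9 and 15.6 CPM in Hopx AL against 45.6, 35.6 and 61.0 CPM in Lgr5 AL (log2 fold change -1.73 ± 0.26, edgeR adjusted p = 0.0581). Ascl2, the transcription factor of Lgr5 stem cell identity, was at 29.8 and 45.4 CPM against 142.0, 122.7 and 223.6 CPM (log2 fold change -2.11 ± 0.39, edgeR adjusted p = 0.0639). Groups did not overlap in either gene. Olfm4, an abundant secreted marker of these cells, was at 1910 and 2546 CPM against 2673, 3719 and 6170 CPM, and there the gap between groups was narrow. Lgr5 AL replicate 3 was the highest library for all 3 genes. Without it the list's median was -0.47 and the log2 fold change of Olfm4 -0.53, against -0.91 with it, and with Hopx AL replicate 1 also left out the list's median was -0.35.

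Wnt and Notch genes overlap in part with that list. Of 26 tested Wnt pathway and target genes, 12 reached an unadjusted p under 0.05, all lower, with a median of -0.31, and DESeq2 called 7, all lower. Axin2, a feedback inhibitor that reports Wnt activity, was at 31.1 and 40.5 CPM in Hopx AL against 60.4, 91.8 and 119.0 CPM in Lgr5 AL. Rnf43, a ubiquitin ligase that removes Wnt receptors, was at 65.02 and 85.46 CPM against 130.4, 174.3 and 297.9 CPM. Znrf3, its partner, did not follow, with 15.9 and 19.9 CPM against 12.7, 14.1 and 32.0 CPM. Of 17 tested Notch genes, 5 reached an unadjusted p under 0.05, all lower. They include the receptors Notch1 and Notch2 and the effector Hes1, which was at 52.1 and 64.0 CPM against 104.8, 105.0 and 201.6 CPM. The ligands Dll1 and Dll4 overlapped between groups.

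Genes used as reserve stem cell markers were not higher in Hopx AL as a group, with a median log2 fold change of -0.30. A log2 fold change above 0 was found for 3 of the 10 (52.4% of all genes). Without overlap, 1 was higher (18.8% of all genes) and 4 were lower (15.8%). Of 10 tested, 2 reached an unadjusted p under 0.05, both lower: Lrig1, a brake on ErbB receptors, at 91.9 and 98.2 CPM against 121.5, 210.6 and 218.8 CPM, and Tert, the telomerase subunit, at 1.61 and 3.57 CPM against 4.14, 7.13 and 7.03 CPM. Bmi1, a Polycomb protein, was at 30.2 and 26.9 CPM against 17.1, 22.96 and 33.7 CPM, and Mex3a, an RNA-binding protein, at 1.65 and 2.29 CPM against 2.00, 2.22 and 3.41 CPM, both with overlap. Mki67, a proliferation marker, spread as widely within as between groups, at 5.92 and 51.2 CPM against 5.92, 33.9 and 17.2 CPM, and its log2 fold change of 0.58 was -1.68 without Hopx AL replicate 2. Cdkn1c, the cell cycle inhibitor p57, was higher in both Hopx AL libraries, at 35.9 and 30.5 CPM against 15.4, 8.10 and 9.02 CPM (log2 fold change 1.62 ± 0.37, edgeR adjusted p = 0.0959). It was the exception among 22 tested cell cycle inhibitor and quiescence genes, with 1 higher and 3 lower at an unadjusted p under 0.05. That list had a median log2 fold change of -0.06, with 2 genes higher and 6 lower without overlap. Of 46 S phase genes, 6 were lower and 0 higher at an unadjusted p under 0.05, and 14 were lower without overlap. Of 50 G2 and mitosis genes, 8 were lower and 2 higher, and 14 were lower without overlap, where 8.42% of all genes were lower at that p and 15.8% were lower without overlap. DESeq2 called 2 of the 46 S phase genes (4.35%) and 3 of the 50 G2 and mitosis genes (6%), all lower. These shares are near the 4.26% of all genes that it called lower.

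**Figure D2:**
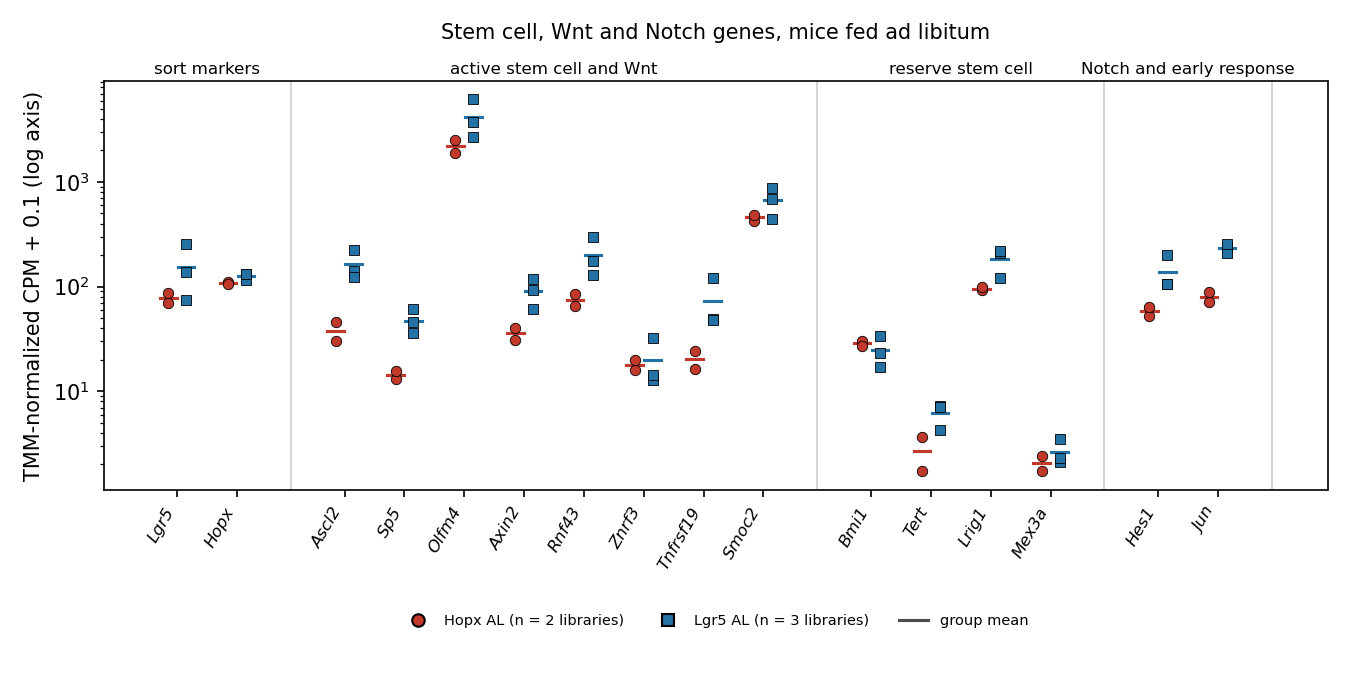
Levels (TMM-normalized CPM plus 0.1, log axis) of the sort markers and of stem cell, Wnt and Notch genes in each Hopx AL (circles) and Lgr5 AL (squares) library, with the group mean as a bar. Ascl2, Sp5, Axin2, Rnf43, Hes1 and Jun separate the groups, while Lgr5, Znrf3, Smoc2, Bmi1 and Mex3a overlap.

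Among the genes with the smallest p outside these lists, Fabp5, a fatty acid carrier, was at 175.2 and 89.7 CPM in Hopx AL against 19.8, 14.6 and 6.30 CPM in Lgr5 AL. Cnr1, the cannabinoid receptor CB1, was at 12.2 and 7.64 CPM against 0.32, 0.49 and 0.65 CPM, and Rgs4, a brake on G protein signals, at 39.1 and 28.8 CPM against 1.93, 0.93 and 2.20 CPM. The lower Hopx AL library was above the highest Lgr5 AL library for all 3. Jun, the AP-1 subunit, was lower at 70.4 and 88.2 CPM against 239.5, 209.8 and 257.0 CPM (log2 fold change -1.57 ± 0.21, edgeR adjusted p = 0.0581). Fosl2, another AP-1 gene, was at 40.26 and 50.04 CPM against 88.4, 74.8 and 80.2 CPM. Of 21 immediate early genes, 4 were lower at an unadjusted p under 0.05, and DESeq2 called 4 lower. Egr1 was higher, at 27.8 and 13.4 CPM against 11.1, 8.77 and 11.9 CPM. Tgm2, a transglutaminase, was at 133.3 and 158.5 CPM against 352.1, 346.9 and 413.9 CPM, and Tln1, which links integrins to actin, at 88.8 and 72.1 CPM against 183.0, 190.1 and 211.9 CPM. Under CR the log2 fold changes of Tgm2 and Tln1 were -0.42 and -0.26, both with overlap, against -1.35 and -1.28 in AL. Of 19 laminin, integrin and hemidesmosome genes, 6 were lower and 1 higher at an unadjusted p under 0.05, with a median of -0.31. Lamb2, a laminin chain, was at 6.32 and 6.44 CPM against 16.8, 24.1 and 30.97 CPM and Lamb3 at 35.6 and 22.3 CPM against 55.9, 73.9 and 79.9 CPM. The higher gene was the laminin chain Lama5, at 45.7 and 36.8 CPM against 16.59, 10.95 and 5.65 CPM.

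**Figure D3:**
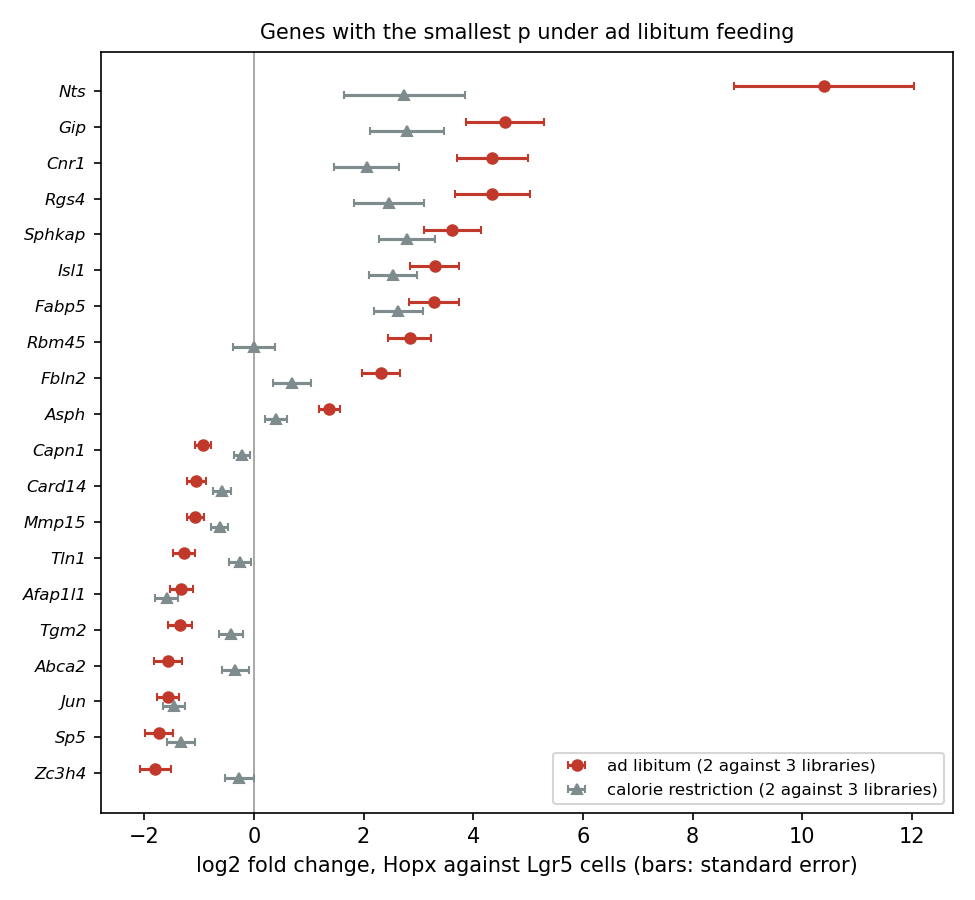
Log2 fold change of Hopx against Lgr5 cells (x axis, bars are standard errors) for the 20 genes with the smallest p by the naming rule, under ad libitum feeding (circles) and calorie restriction (triangles). Gip, Isl1, Sphkap, Jun, Sp5 and Afap1l1 lie on the same side under both diets, while Rbm45 is near 0 under calorie restriction. Others keep their side but are much smaller under calorie restriction, such as Tln1 (-0.26), Capn1 (-0.22), Zc3h4 (-0.27), Abca2 (-0.34), Tgm2 (-0.42) and Asph (0.40).

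Genes of the translation and respiration machinery were higher by smaller amounts. Of 78 tested cytosolic ribosomal protein genes, 50 reached an unadjusted p under 0.05, all higher, with a median log2 fold change of 0.65, and of 87 nuclear oxidative phosphorylation genes 48, with a median of 0.61. DESeq2 called 8 of the 78 and 6 of the 87, all higher (2.99% of all genes). Genes of both lists are short, and shorter transcripts tended to be higher in Hopx AL. With genes in 5 bins by transcript length, the bin of the shortest had a median log2 fold change of 0.36 and that of the longest -0.16. With each library's trend over length removed, the medians were 0.29 and 0.28, and 14 ribosomal and 33 oxidative phosphorylation genes were higher at an unadjusted p under 0.05. In that fit 1 ribosomal gene was lower, and 1418 of all 15839 genes were higher at that p. On the log2(TPM + 1) scale both medians were below 0, at -0.14 and -0.17, where the median of all genes was -0.49. With the length trend removed, the median was 1.78 for hormones, 1.91 for the granin list, 1.11 for Paneth genes, -0.75 for active stem cell genes and -0.16 for Wnt genes. On log2(TPM + 1), where values of low genes are compressed, it was 1.18 for hormones, 0.84 for the granin list, 0.39 for the enteroendocrine transcription factors, 1.04 for Paneth genes, 0.065 for goblet genes, -1.49 for active stem cell genes and -0.89 for Wnt genes. Less the all-gene median of -0.49, these are 1.67, 1.33, 0.88, 1.53, 0.56, -0.9996 and -0.40.

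**Figure D4:**
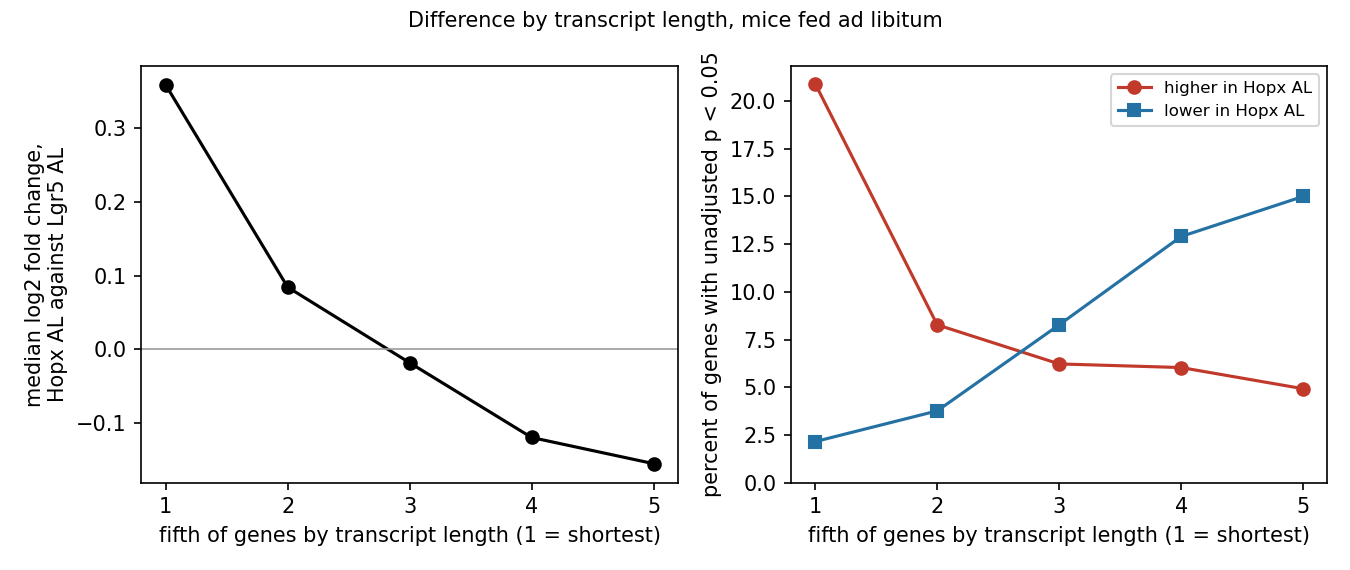
Left, median log2 fold change of Hopx AL against Lgr5 AL in 5 bins of genes by transcript length, from 0.36 in the shortest to -0.16 in the longest. Right, percent of genes with an unadjusted p under 0.05, which for higher genes is 20.9% in the shortest bin and 4.92% in the longest, and for lower genes 2.15% and 15%.

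Transcripts of the mitochondrial genome were higher in Hopx AL, with 9 of 12 at an unadjusted p under 0.05 and a median log2 fold change of 1.35. mt-Co2, a cytochrome oxidase subunit, was at 2519 and 3962 CPM against 1119, 1046 and 1450 CPM. The median was 0.77 without Hopx AL replicate 2, which of the 5 AL libraries had the largest mitochondrial share of counts (4.45%). With the length trend removed it was 0.85, with 6 genes at an unadjusted p under 0.05, and on log2(TPM + 1) it was 0.53. In fatty acid oxidation, 6 of 30 genes were higher at an unadjusted p under 0.05. Pdk4, a kinase that turns cells from glucose to fat as fuel, was at 41.97 and 23.98 CPM against 12.5, 9.67 and 8.29 CPM, with both Hopx AL libraries above all of Lgr5 AL (log2 fold change 1.70 ± 0.29, edgeR adjusted p = 0.0581). Genes of the mTORC1 complex and its regulators showed no common direction, with 5 of 40 higher and 5 lower at an unadjusted p under 0.05. Mtor, the kinase itself, was at 34.2 and 29.5 CPM against 35.5, 52.8 and 42.7 CPM. Rptor, the subunit that recruits substrates, was at 24.7 and 24.9 CPM against 41.5, 55.4 and 51.0 CPM, and Tsc2, an upstream inhibitor, at 49.96 and 55.02 CPM against 78.0, 106.7 and 99.1 CPM. Under CR the log2 fold changes of Rptor and Tsc2 were 0.20 and -0.17, both with overlap, against -0.99 and -0.85 in AL. Lamtor4 and Lamtor3 of the same list were higher without overlap. Lamtor4 was at 19.2 and 26.3 CPM against 12.2, 13.1 and 9.19 CPM, and Lamtor3 at 53.3 and 42.1 CPM against 35.1, 31.3 and 28.0 CPM.

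Markers of other cells were read in the same libraries. Epcam, an epithelial marker, was between 1408 and 2201 CPM in all 5. Of 24 T cell and intraepithelial lymphocyte genes none reached an unadjusted p under 0.05 in edgeR (0 also passed in DESeq2), and their summed level was 321 and 157 CPM in Hopx AL against 416, 59.2 and 72.8 CPM in Lgr5 AL. The 15 tested stroma, vessel and nerve genes summed to 132 and 93.2 CPM in Hopx AL against 102, 116 and 130 CPM in Lgr5 AL, most of it Kit, at 95.5 and 50.2 CPM against 77.8, 88.9 and 110.7 CPM. Vim was at 24.0 and 28.5 CPM against 13.1, 15.02 and 9.51 CPM, with no overlap, and Pecam1 at 7.86 and 7.30 CPM against 6.71, 3.91 and 3.09 CPM. The collagen genes Col1a1, Col1a2 and Col3a1 were at or below 1.16 CPM in these 5 libraries, and Col3a1 had a TPM of 0 in Lgr5 AL replicate 3. None of the 15 reached an unadjusted p under 0.05 in edgeR, and 0 passed in DESeq2. Of 19 B cell and myeloid genes 3 were higher at an unadjusted p under 0.05, C1qb, C1qc and Lyz2, the last at 89.8 and 90.2 CPM against 22.1, 13.6 and 4.63 CPM. The other 2 were at low levels in all 5 libraries. C1qb was at 0.76 and 2.37 CPM against 0.21, 0 and 0.16 CPM, and C1qc at 0.95 and 1.98 CPM against 0.43, 0.05 and 0.20 CPM. DESeq2 called 2 of the 19 B cell and myeloid genes, Lyz2 and C1qb, both higher (2.99% of all genes). Without overlap, 5 of the 19 were higher (18.8% of all genes) and 0 lower. Tuft cell genes had a median log2 fold change of -0.06. Leaving out Hopx AL replicate 1 turned that median to -1.07, and leaving out replicate 2 of the same group turned it to 0.23. Dclk1, a tuft cell kinase, was at 44.9 and 19.2 CPM against 31.1, 22.8 and 47.4 CPM. Of 34 enterocyte genes 2 were higher and 2 lower at an unadjusted p under 0.05, and Lgr5 AL replicate 1 had the largest summed level, 41500 CPM. The 4 tested Y-linked genes summed to 3.37 CPM in Lgr5 AL replicate 3 and to 49.2 to 133 CPM in the other 4 libraries. In CR they summed to 2.74 CPM in Hopx CR replicate 1 and 3.84 CPM in Lgr5 CR replicate 3. The remaining CR libraries were at 81.9 to 130 CPM. Isolation 4 thus pairs Hopx AL replicate 1, at 82.6 CPM, with Hopx CR replicate 1. The part of these Y-linked values in the differences was not tested.

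The same contrast in CR libraries, from other animals of the same isolations, gave 3 genes past the threshold (0.0189%), and the difference between diets gave 1, Gm10698 (0.00631%). In CR, 998 genes (6.3%) reached an unadjusted p under 0.05 in edgeR, against 2801 (17.7%) in AL. Each isolation holds an AL and a CR animal, and with isolation as a fixed block Gm10698 had an edgeR adjusted p of 0.195 and 0 genes passed (764 at an unadjusted p under 0.05, 4.82%, and 40 called by DESeq2 without the block). Of the 2801 genes with an unadjusted p under 0.05 in AL, 84.6% had the same sign in CR, against 66.6% of all genes tested. Only 465 of the 2801 (16.6%) had both the same sign and an unadjusted p under 0.05 in CR. The isolations are shared, so this is no separate sample of them. Under CR the median log2 fold change was 1.25 for hormones, 0.87 for the granin list and -0.72 for active stem cell genes. All 30 of the latter were below 0, but Ascl2 was at -0.52 with overlap, against -2.11 in AL. Sp5 and Olfm4 were at -1.33 and -1.27 under CR, without overlap. The Paneth list was at 0.50, and Lyz1 at 0.17 against 1.90 in AL. Mitochondrial genome transcripts had a CR median of -0.46, and for 9 of the 12 the difference between diets had an unadjusted p under 0.05 (4.72% of all genes). Lgr5 CR replicate 1 stood apart here, with a summed 50600 CPM against 26300 and 18800 CPM in Lgr5 CR replicates 2 and 3. The Hopx CR libraries were at 17600 and 21800 CPM. The share of this library in the difference between diets was not tested. Tuft cell genes had a CR median of 1.54, with 13 of 28 at an unadjusted p under 0.05 for the difference between diets. With the isolation block, 8 of the 12 and 14 of the 28 were at that level. None of these members passed after adjustment in either fit.

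**Figure D5:**
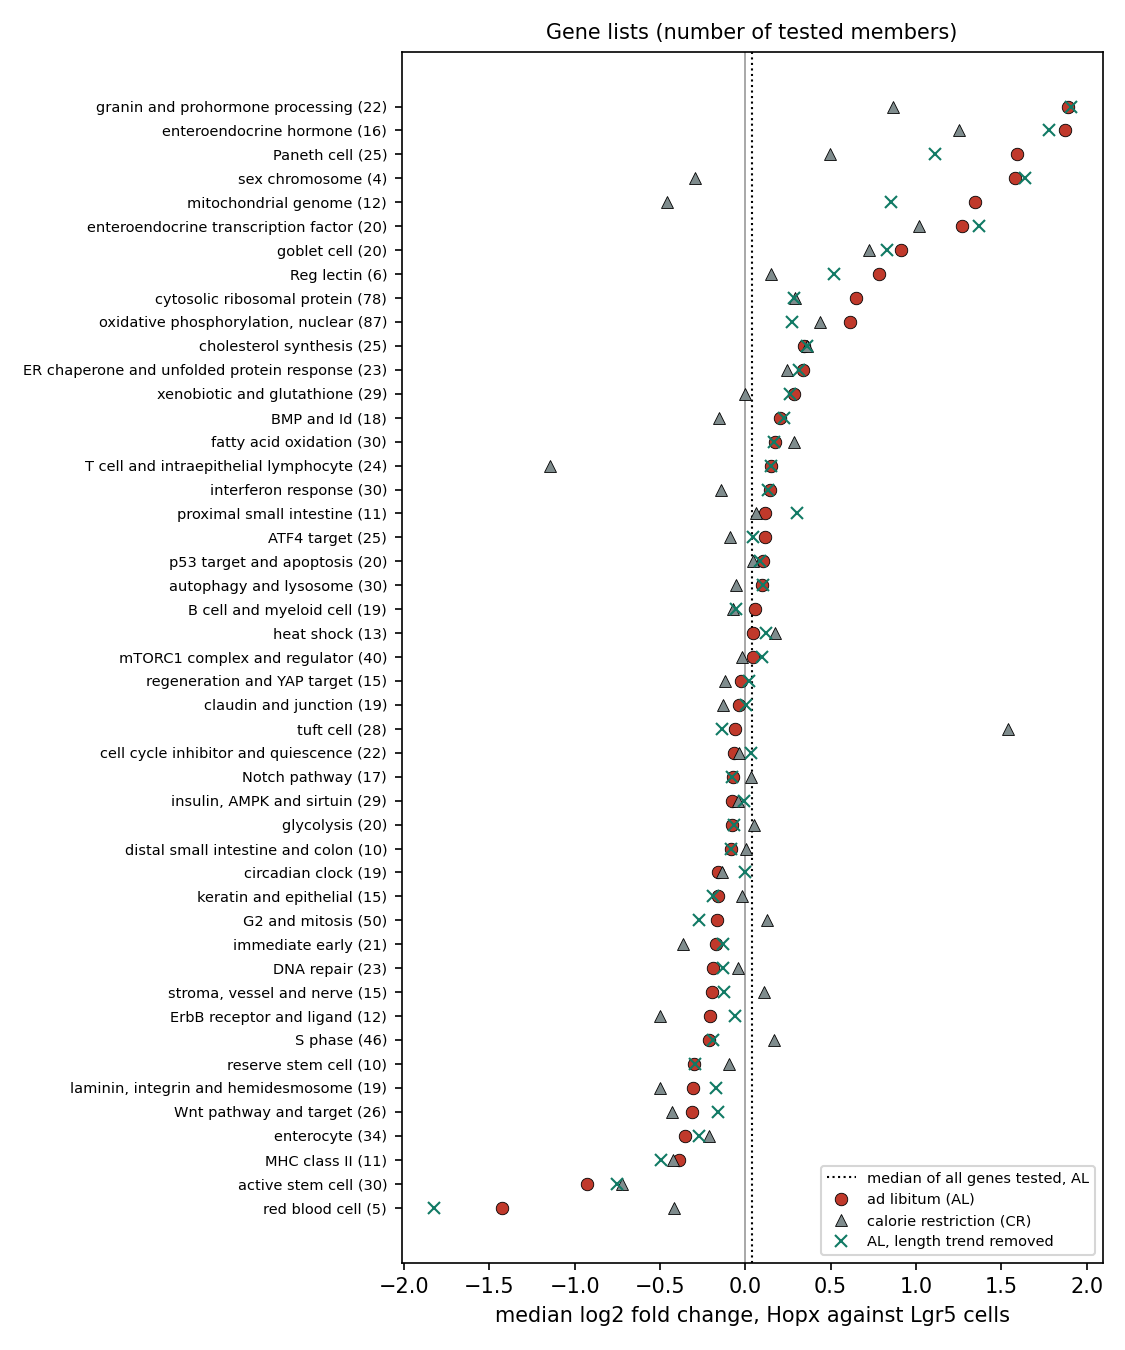
Median log2 fold change of Hopx against Lgr5 cells for each gene list, with the number of tested members in parentheses, under ad libitum feeding (circles), under calorie restriction (triangles) and under ad libitum feeding with the length trend removed (crosses). Granin, hormone and Paneth genes have the highest ad libitum medians, at 1.89, 1.87 and 1.59, and active stem cell genes are at -0.93.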

How the data were processed

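RNA from 10 libraries, 1 per animal, was made into cDNA with SMART-Seq v4 and Nextera XT and sequenced on an Illumina instrument, per the labels' protocols, with no molecular identifiers and no strand marking. The authors deposited estimated counts per gene symbol and TPM (transcript abundance per 1e6) for the same 30295 rows. The submitters' processing notes name kallisto, edgeR and the build GRCh38, which is human, while the deposited symbols are those of mouse genes, and 93.8% of them are in GENCODE M21. How transcripts were summed to genes is not given in the sources used here.

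Estimated counts were rounded. edgeR 4.0.16 (R 4.3.3) fitted 4 group means to all 10 libraries, with filterByExpr at a minimum count of 10, TMM scaling and quasi-likelihood tests, two-sided, Benjamini-Hochberg adjusted over 15839 genes at 0.05. The biological coefficient of variation was 0.389. Standard errors are the log2 fold change divided by the square root of F. The contrasts were Hopx against Lgr5 under AL, under CR, and their difference. limma 3.58.1, DESeq2 1.42.0, other scalings and filters, log2(TPM + 1) and log2(TPM + 0.1), a correction for the trend over transcript length (estimated counts over TPM), blocks on the title number or the isolation, and leaving out each library were alternatives. The fit was tested on simulated data. Promoters came from RefSeq (GRCm38.p6).

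Members and the 47 gene lists were chosen with earlier results of these data known. Named genes are those past the threshold with at least 5 CPM, groups that do not overlap and an ordinary symbol. As none qualified, the 10 higher and 10 lower genes with the smallest p were taken, and then up to 4 members per list, again by p, and a set of fixed genes such as Lgr5, Hopx and Mtor. Other list members named in the text were chosen after their values were seen.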

Additional observations from a re-analysis of the deposited data

Results flagged for a closer look

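The difference between Hopx and Lgr5 cells differed between diets for 1 gene, Gm10698. Its levels were 6.53 and 6.93 CPM in Hopx AL, 11.4, 12.5 and 7.11 CPM in Lgr5 AL, 10.3, 13.9 and 12.6 CPM in Lgr5 CR, and 0 in both Hopx CR libraries. The AL difference minus the CR difference was 11.54 on the log2 scale (edgeR adjusted p = 0.0019), a fitted value that depends on the prior count because a group is at 0. With isolation as a block it was 11.56 and did not pass (edgeR adjusted p = 0.195). It is a predicted gene whose reads can be shared with copies.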

How the results depend on the processing

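The number of genes past the threshold in Hopx AL against Lgr5 AL, 3 in the edgeR fit, depended on the processing. It was 1104 with DESeq2, 7 with limma voom, 194 with no low-count filter, 77 with a minimum count of 50, 3359 on log2(TPM + 1), 3617 on log2(TPM + 0.1) and 53 with the length trend removed. The TPM calls were mostly lower in Hopx AL (118 higher and 3241 lower at a pseudocount of 1), where the median of all genes was -0.49. Leaving out 1 library at a time gave 0 (without Lgr5 AL replicate 2) to 110 (without Lgr5 AL replicate 1). With Hopx AL replicate 1 and Lgr5 AL replicate 3 both left out, an alternative chosen after seeing the data, it was 5. A replicate block on the title number, which pairs no animals or isolations (same-numbered libraries deviated together with r of 0.11 and 0.0094), gave 0, and a replicate block with isolation as a random effect gave 9. For Hopx CR against Lgr5 CR, 3 genes passed, 190 with DESeq2, 2 with the replicate block, and 1 to 7 with a library left out. For the difference between diets, 1 passed, 40 with DESeq2, 1 with the replicate block on the title number, 0 with isolation as a fixed replicate block (added after seeing the data), and 1 to 2 with a library left out. The cause of these shifts was not tested. With 2 and 3 libraries per group, differences near the spread between libraries cannot be resolved.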
